A study of Homo sapiens with 12 samples.

Results

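HIF target genes were examined in U251-MG cells, a human astrocytoma line that the labels call astrocytes, with and without manganese. The set held HIF1A, which encodes a subunit of hypoxia-inducible factor (HIF), and 9 genes known as HIF targets: ADM, VEGFA, SLC2A1, SLC2A3, BNIP3, NDRG1, EGLN1, EGLN3 and KDM3A. The genes were chosen by name, with earlier results of these data known, and each was found by its name in the deposited table. In all, 10 of 36963 genes are described. The further lists below were chosen in the same way. The study recovered RNA bound to YTHDF2, a protein that reads the N6-methyladenosine mark in mRNA, by immunoprecipitation (IP), and sequenced it beside the RNA of the cleared lysate (input). All cells were held in medium with 2% serum. Control cells received no manganese, and treated cells received manganese chloride at 100 µM for a time that the labels do not give. Control input, manganese input, control IP and manganese IP had 3 libraries each. The input was 2.5% of the lysate and was purified for poly(A) RNA. No IP with a control antibody is named in the labels, so RNA that came down without YTHDF2 was not measured apart. The cells are a single tumour line, and nothing in the labels says that libraries came from separate cultures, so the p-values compare libraries and their spread may be technical.

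HIF is a pair of proteins that switches on genes when oxygen is short. While oxygen is plentiful, prolyl hydroxylases of the EGLN family, which need oxygen and iron, mark the alpha subunit for VHL and the proteasome, and when they slow down the subunit accumulates, enters the nucleus with ARNT and binds hypoxia response elements with the core letters ACGTG or GCGTG. Its targets supply glucose transporters and glycolytic enzymes, secreted signals to vessels, proteins that remove mitochondria and the hydroxylases that shut the response off. Manganese and some other metals are known from other cell cultures to raise HIF protein. HIF protein was not measured here.

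The core letters were searched on both strands in RefSeq windows (GRCh38.p14) from 250 bases before to 50 bases after each annotated start, whereas the deposited values were made on hg19. Of the 10 genes, 7 had a window, and 6 of the 7 held a match, against 52.4% of 27305 genes with a window. The lines give, 5′ to 3′ on the strand of the gene, 1 match for each of 5 genes, with the motif in capitals, because these are the letters that HIF is known to bind. The first base of the motif lay 101 bases before the start in ADM, 133 in BNIP3 and 13 in EGLN1. In KDM3A it lay 26 or 116 bases before the 2 annotated starts. In HIF1A it lay 204 bases before 1 of the 2 annotated starts, and the window of the other start held no match.
HIF1A (chr14:61695301-61695321): tgagagcgGCGTGggctgggg
ADM (chr11:10304964-10304984): aggagcgcGCGTGgctgagga
BNIP3 (chr10:131982044-131982064): cgcgccgcACGTGccacacgc
EGLN1 (chr1:231422288-231422308): cgtggtgtACGTGcagagcgc
KDM3A (chr2:86441337-86441357): gaggctgtGCGTGtcttgtga

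The BNIP3 window held 6 matches between 143 and 100 bases before its start. The ACGTG shown for it overlaps a match on the other strand, because the letters CACGTG read alike on both. The SLC2A1 match began 26 bases after the start, and the EGLN3 window held neither motif. VEGFA, SLC2A3 and NDRG1 had no window. A match describes these letters and is not a measurement of HIF binding. Counted by genes with a window, 18 of 19 glycolytic HIF targets and 35 of 41 other hypoxia-induced genes held the motif. Of the HIF subunits and regulators 12 of 16 did, against 52.4% of all genes with a window.

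Estimated gene counts ran from 16683984 to 28425552 per library. Control IP 3 had the fewest and had 56.88% of its fragments aligned, against 83.7% to 87.12% in the other 11 libraries. PCGF6 took 34.3% to 41.8% of the counts of each library, so levels are given as counts-per-million values (CPM) scaled by TMM factors, which are set from the bulk of genes. The input libraries scaled differently with treatment: when total counts were used in place of TMM factors, the median log2 change of all genes with manganese in the input moved from -0.04 to -0.49. Of the 9 astrocyte and glioma markers, GFAP (36.5 to 476 TPM, the transcripts-per-million unit) and VIM (594 to 1211 TPM) were present in every library, whereas AQP4 was listed at 0 in each and ALDH1L1 reached 0.0927 TPM at most. The summed level of the 9 was 1772 to 1908 TPM in control input, 1533 to 1622 TPM in manganese input, 1431 to 1806 TPM in control IP and 1167 to 1456 TPM in manganese IP. That of the 3 epithelial markers was 11.5 to 18.6, 8.74 to 12.3, 2.68 to 3.64 and 5.57 to 14.8 TPM in the same order, with EPCAM and CDH1 below 1 TPM in every library. Of the microglial markers, 4 of 5 stayed below 1 TPM in every library, with AIF1 at 0. Their summed level was 2.04 to 3.76 TPM in control input and 12.5 to 13.6 TPM in manganese input, and 1.03 to 1.72 and 10.5 to 12.5 TPM in the 2 IP groups. CD68 reached 13.5 TPM, and the part of these marker levels in the results was not tested. In bulk RNA, a response of more cells and more RNA per cell cannot be told apart.

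In the input, which shows how steady-state mRNA responded to the metal, 8 of the 10 genes were higher in manganese-treated cells and none was lower. ADM rose most, the glucose transporter genes SLC2A1 and SLC2A3 followed, then NDRG1 and VEGFA, and the increases of BNIP3, EGLN3 and EGLN1 were smaller. Over all 14804 genes tested, 11.3% were higher and 3.63% lower (15% in either direction) at an adjusted p under 0.05. All 10 genes passed the filter on low counts. Because the set was chosen with earlier results known, these shares are given for scale and are not a test of the set.

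Among the secreted signals, ADM encodes adrenomedullin, a peptide that widens vessels. Its level was 6.99, 8.70 and 6.75 CPM in the control inputs and 146, 169.8 and 132 CPM in the manganese inputs. No manganese library came near a control library. The increase was 19.9-fold (log2 4.32 ± 0.29 SE, edgeR quasi-likelihood test, Benjamini-Hochberg adjusted p = 7.27e-07). VEGFA, the main growth factor of endothelial cells, was at 44.3, 50.2 and 49.9 CPM in control and at 277, 272 and 322 CPM in manganese inputs. Again no library overlapped, and VEGFA rose 6.03-fold (log2 2.59 ± 0.23, edgeR adjusted p = 6.76e-06).

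Both glucose transporter genes of the set rose. SLC2A1, which encodes the widespread basal transporter, was at 50.3, 49.6 and 34.8 CPM in control inputs and at 431, 409 and 399.8 CPM in manganese inputs. SLC2A3, which encodes the high-affinity transporter best known from neurons, was at 46.3, 48.7 and 36.9 CPM and then at 331, 325 and 395 CPM. Neither gene had overlapping groups. SLC2A1 rose 9.21-fold (log2 3.20 ± 0.25, edgeR adjusted p = 2.05e-06) and SLC2A3 7.96-fold (log2 2.99 ± 0.21, edgeR adjusted p = 8.16e-07). A copy of SLC2A3, SLC2A3P1, was given 169 to 408 counts in control inputs and 171 to 320 in manganese inputs, so some reads of the pair are uncertain. With the counts of SLC2A3P1, the other SLC2A3 copies and the related gene SLC2A14 added, SLC2A3 rose by log2 2.73 (edgeR adjusted p = 8.02e-07).

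NDRG1, a stress-response gene induced by hypoxia and by metals, was at 97.1, 100.1 and 118 CPM in control and at 746, 707 and 564 CPM in manganese inputs. It rose 6.40-fold (log2 2.68 ± 0.33, edgeR adjusted p = 8.98e-05), with groups that did not overlap. BNIP3, which marks mitochondria for removal, was at 176, 171 and 175 CPM and then at 438, 422 and 403 CPM. The spread of both groups was narrow, and BNIP3 rose 2.42-fold (log2 1.28 ± 0.19, edgeR adjusted p = 0.000335). Its pseudogene BNIP3P1 held between 3.79% and 19.1% as many counts as BNIP3, and adding them gave log2 1.24.

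The 2 oxygen-sensing hydroxylases of the set, which form a feedback on HIF, also rose in the input. EGLN1, the main hydroxylase of HIF alpha subunits, was at 175, 191 and 194 CPM in control and at 346, 359.7 and 342 CPM in manganese inputs, an increase of 1.87-fold (log2 0.90 ± 0.16, edgeR adjusted p = 0.00168). EGLN3, a relative that hypoxia induces more sharply in many cells, was at 28.2, 23.5 and 28.0 CPM and then at 63.5, 60.3 and 64.6 CPM, an increase of 2.36-fold (log2 1.24 ± 0.20, edgeR adjusted p = 0.000842). No library overlapped for either gene. The EGLN1 call was lost on total counts (log2 0.45, edgeR adjusted p = 0.0508) and on log2(TPM + 1) (log2 0.21, limma adjusted p = 0.525), and over its 24 alternatives the adjusted p ran from 5.94e-07 to 0.525.

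KDM3A, a histone demethylase, did not pass the test, at 52.4, 50.0 and 48.7 CPM in control and 76.4, 69.8 and 76.7 CPM in manganese inputs (log2 0.56 ± 0.26, edgeR adjusted p = 0.202). Its groups were nonetheless apart, and without control IP 3, which enters the shared estimate of spread, the call was made (edgeR adjusted p = 0.0161; range over 24 alternatives 0.00184 to 0.83). HIF1A itself was at 1310.2, 1108 and 1038 CPM in control and at 836, 872 and 899 CPM in manganese inputs, with each manganese library below each control library. The difference of log2 -0.41 ± 0.16 did not pass (edgeR adjusted p = 0.127). It passed in 8 of 24 alternatives, with log2 -0.85 on total counts (adjusted p = 0.00274), without control IP 3 (adjusted p = 0.0402) and without manganese IP 3 (adjusted p = 0.0383), and its adjusted p ran from 0.00274 to 0.400. In 9 genes of the set all manganese inputs lay above all control inputs and in HIF1A all lay below, against 23.3% and 21.4% of all genes.

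**Figure D1:**
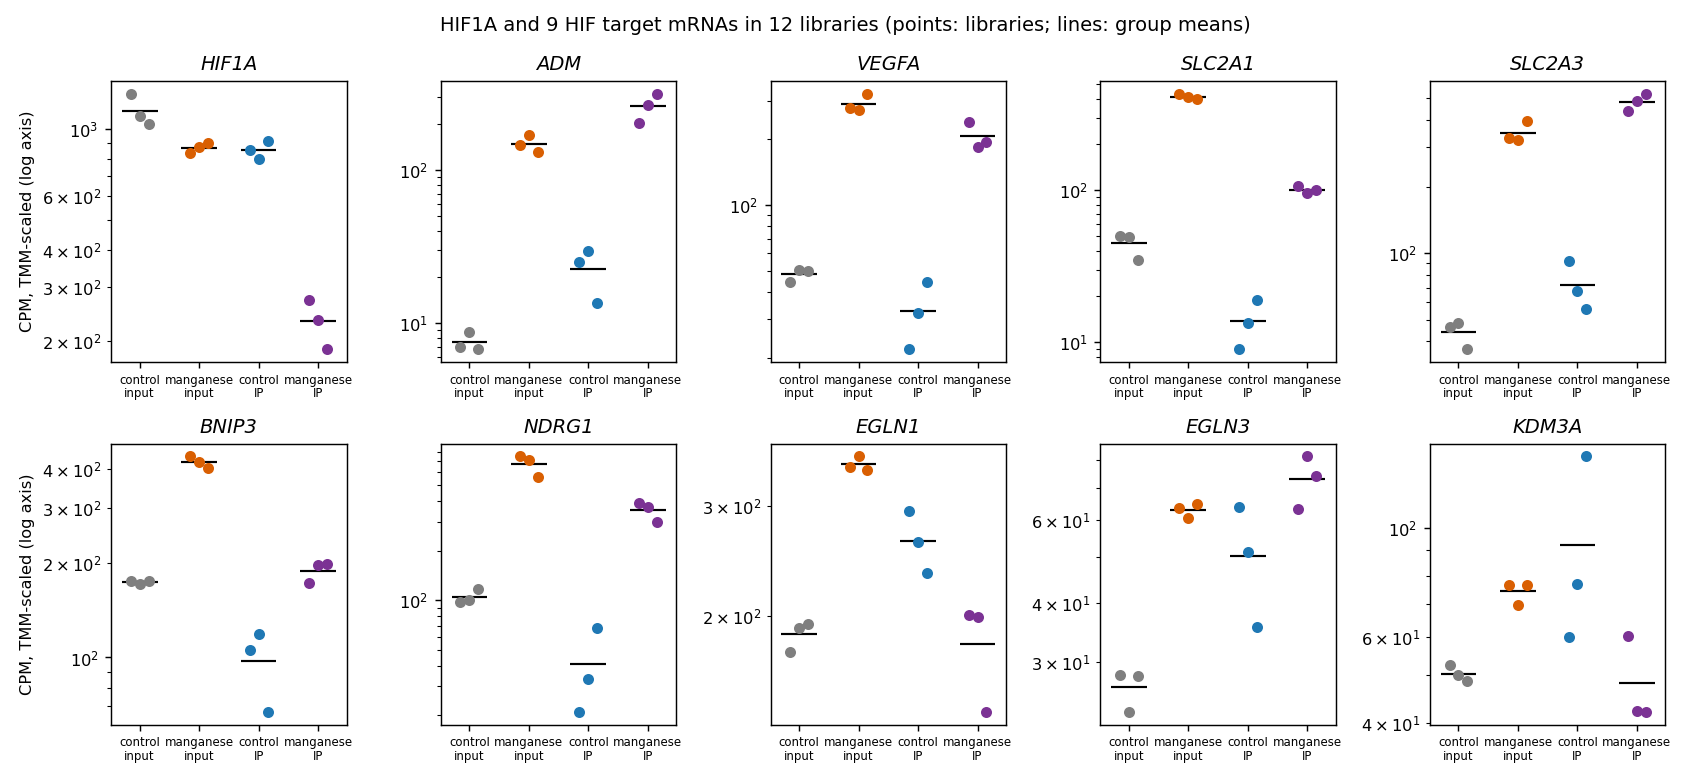
Level of each of the 10 genes in the 12 libraries, in TMM-scaled CPM on a log axis; each point is a library, in 4 groups of 3, and bars mark group means. ADM lies at 6.75 to 8.70 CPM in control input and at 132 to 169.8 CPM in manganese input, while HIF1A in manganese IP (187 to 272 CPM) lies below its other 3 groups.

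On a scale per transcript length, the order of the levels changed with manganese. In control input HIF1A had the highest level (258 ± 32.7 TPM, SD, n = 3), NDRG1 (143 ± 23.3 TPM) and BNIP3 (128 ± 4.83 TPM) came next and lay within their spread, and SLC2A3 (8.80 ± 1.05 TPM), EGLN3 (7.54 ± 0.83 TPM) and ADM (3.16 ± 0.43 TPM) were lowest. In manganese input NDRG1 led with 654 ± 102 TPM, ahead of VEGFA (339 ± 22.2 TPM) and BNIP3 (221 ± 13.3 TPM). HIF1A came after them with 147 ± 7.15 TPM, within the spread of SLC2A1 (139 ± 16.8 TPM). ADM (55.0 ± 11.6 TPM), SLC2A3 (48.1 ± 4.28 TPM) and EGLN1 (44.4 ± 5.21 TPM) could not be ordered beyond their spread.

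Other genes of the pathway moved with the set in part. The share of all genes tested in the input was 11.3% higher and 3.63% lower. Among 48 tested genes of a further list known to be induced by hypoxia, 37 rose with manganese in the input, none fell and 11 did not pass, with a median log2 change of 2.10 against -0.04 for all genes. P4HA2, a collagen hydroxylase, went from 11.4 ± 3.59 to 279 ± 25.2 CPM (SD, n = 3; log2 4.62 ± 0.24, edgeR adjusted p = 1.39e-07), and HILPDA, a lipid droplet protein, from 9.16 ± 1.56 to 158 ± 12.2 CPM (log2 4.10 ± 0.23).

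Of 18 tested glycolytic HIF targets, 9 rose, none fell and 9 did not pass, with a median log2 of 0.84. ENO2, an enolase, rose by log2 2.63 ± 0.19 (edgeR adjusted p = 9.9e-07), PGK1, a kinase of glycolysis, by 1.40 ± 0.16 (adjusted p = 3.66e-05) and GAPDH by 1.39 ± 0.18 (adjusted p = 0.000153). Genes such as GAPDH and PGK1 have processed copies in the genome that may share reads. On total counts, 4 of the 18 rose, beside 1121 of all 14804 genes tested.

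Of 18 HIF subunits and regulators, 3 rose, none fell and 15 did not pass, with a median log2 of -0.03, which is close to that of all genes. The 3 were OS9 (log2 1.84 ± 0.23, edgeR adjusted p = 9.37e-05), a lectin of the endoplasmic reticulum reported to bind HIF1A, the ubiquitin ligase SIAH2 (1.37 ± 0.22, adjusted p = 0.000742), which degrades EGLN proteins, and CITED2 (1.38 ± 0.23, adjusted p = 0.000895), which competes with HIF for its coactivators. On total counts the 3 lists gave 29 of 48, 4 of 18 and 3 of 18 higher, with 0, 0 and 2 lower. Of all 14804 genes tested, 1121 were higher and 2621 lower in that setting. Over all genes the share of calls that were higher was 75.8% with TMM factors and 30% with total counts.

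**Figure D2:**
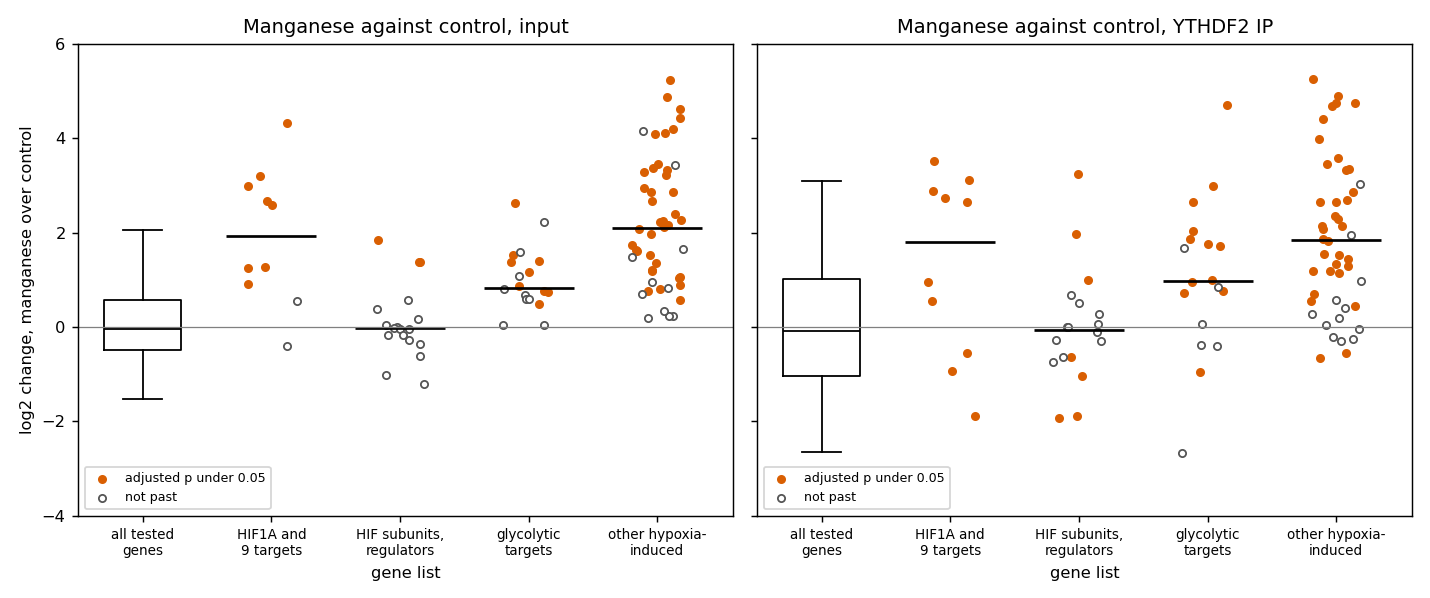
Log2 change with manganese in the input and in the IP for the 10 genes and the 3 further lists (each point a gene, filled where its adjusted p was under 0.05; thick lines are medians), beside all 14804 tested genes (box: median and quartiles; whiskers: 5th to 95th percentile). In the input the other hypoxia-induced genes have a median of 2.10 and the HIF subunits and regulators -0.03. A hypoxia-induced gene at log2 8.62 in the IP lies above the end of the axis and is not drawn.

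The same contrast in the IP shows the level of each gene in the RNA that came down with YTHDF2 in treated and in control cells. Of the 10 genes, 7 rose and 3 fell: ADM, NDRG1, SLC2A1, SLC2A3, VEGFA, BNIP3 and EGLN3 were higher, and HIF1A, EGLN1 and KDM3A were lower. Over all genes 20.4% were higher and 22.5% lower (42.9% in either direction). The calls of EGLN3 and KDM3A rested on groups that overlapped.

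For ADM the IP held 25.05, 29.5 and 13.6 CPM in control and 203, 267 and 317 CPM in manganese libraries, an 11.5-fold increase (log2 3.53 ± 0.28, edgeR adjusted p = 9.3e-07). VEGFA went from 21.9, 31.9 and 44.3 CPM to 238, 184 and 194 CPM (6.29-fold, log2 2.65 ± 0.23, edgeR adjusted p = 1.95e-06). SLC2A1 went from 8.997, 13.3 and 18.9 CPM to 107, 95.6 and 101 CPM (7.37-fold, log2 2.88 ± 0.24, edgeR adjusted p = 1.64e-06). In each of these the manganese libraries stood clear of the control libraries. SLC2A3 went from 92.4, 67.8 and 55.9 CPM to 439.6, 485 and 524 CPM (6.70-fold, log2 2.74 ± 0.20, edgeR adjusted p = 5.58e-07). Its copy SLC2A3P1 had 966 counts in control IP 3, or 90.2% of those of SLC2A3, and 0 in the other 5 IP libraries. With the counts of all SLC2A3 copies and SLC2A14 added the change was log2 2.44 (edgeR adjusted p = 6.09e-07).

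NDRG1 was uneven in control IP, at 21.0, 33.3 and 68.2 CPM, and stood at 389, 366 and 300.1 CPM in manganese IP. The increase was 8.63-fold (log2 3.11 ± 0.34, edgeR adjusted p = 1.16e-05). BNIP3 was at 106, 118 and 67.1 CPM in control and at 172, 197 and 198 CPM in manganese IP, which was 1.95-fold higher (log2 0.96 ± 0.19, edgeR adjusted p = 0.000992). Control IP 3 was the highest control IP library for HIF1A, VEGFA, SLC2A1, NDRG1 and KDM3A. It was the lowest for ADM, SLC2A3, BNIP3, EGLN1 and EGLN3, and thus an extreme of its group for every gene of the set. All control IP means, and the enrichments in control cells, include that library unless it is said to be left out.

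HIF1A fell in the IP. Its level was 853, 800.2 and 915 CPM in control and 272, 235 and 187 CPM in manganese libraries. The groups lay far apart, and the decrease was 3.70-fold (log2 -1.89 ± 0.17, edgeR adjusted p = 2.29e-06), with an adjusted p of at most 0.000572 in 24 alternatives.

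Among the hydroxylases, EGLN1 was at 295, 262 and 234 CPM in control IP and at 201, 199 and 140.5 CPM in manganese IP (log2 -0.55 ± 0.16, edgeR adjusted p = 0.0148). Each manganese library lay below each control library, the reverse of the order in the input. The call was lost with a correction for transcript length (adjusted p = 0.170) and when only the IP libraries were fitted (adjusted p = 0.0849; range over 24 alternatives 0.00068 to 0.170). EGLN3 was at 63.8, 51.2 and 35.5 CPM and then at 63.3, 81.5 and 74.2 CPM (log2 0.54 ± 0.20, edgeR adjusted p = 0.0450), a call lost in 13 of 24 alternatives (adjusted p from 0.00749 to 0.524). Among these were leaving out any of the control inputs, control IP 2, manganese IP 2, manganese IP 3 (adjusted p from 0.0569 to 0.108) or control IP 3 (log2 0.34, adjusted p = 0.0937). KDM3A was at 59.8, 76.7 and 140.0 CPM in control and at 60.1, 42.3 and 42.1 CPM in manganese IP (log2 -0.94 ± 0.26, edgeR adjusted p = 0.0111). Its high value was that of control IP 3, and without that library the change was log2 -0.51 (adjusted p = 0.0264); without manganese IP 2 or manganese IP 3 the call was lost (adjusted p = 0.0558 and 0.0577; range over alternatives 0.00146 to 0.0769).

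**Figure D3:**
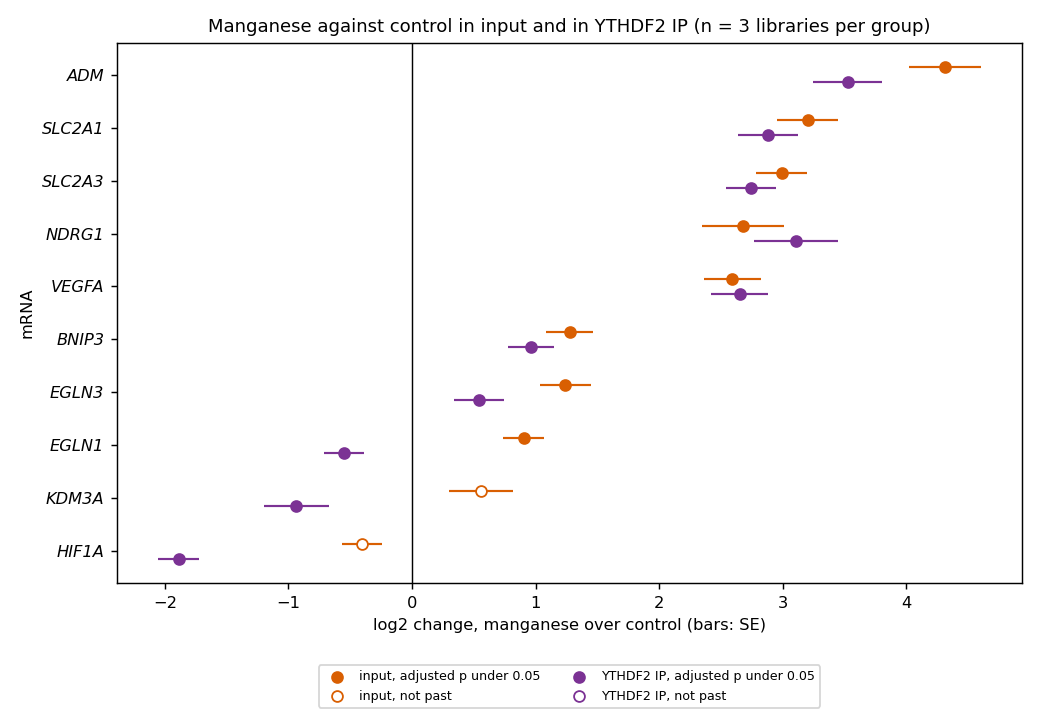
Log2 change with manganese of the 10 genes in the input and in the IP (points; bars are ± 1 SE from the edgeR fit; the vertical line marks no change). ADM, SLC2A1, SLC2A3, NDRG1 and VEGFA lie between 2.59 and 4.32 in both kinds of library, while EGLN1 is at 0.90 in the input and -0.55 in the IP.

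Of the further lists in the IP, 34 of 48 hypoxia-induced genes rose and 2 fell (median log2 1.84, all genes -0.09), as did 11 and 1 of 18 glycolytic genes (median 0.97) and 3 and 4 of 18 subunits and regulators (median -0.06). Over all genes, 20.4% rose and 22.5% fell in the IP. P4HA2 rose by log2 4.74 ± 0.25 and the heme-degrading enzyme HMOX1 by 3.36 ± 0.18, each with an edgeR adjusted p of 8.22e-08. ENO2 rose by 3.00 ± 0.19, GAPDH by 2.66 ± 0.19 and the enolase ENO1 by 2.03 ± 0.17 (edgeR adjusted p = 1.89e-07, 4.71e-07 and 1.49e-06). OS9 rose by 3.25 ± 0.24 (edgeR adjusted p = 6.22e-07) and ELOB, a subunit of the VHL ligase, by 1.96 ± 0.33 (adjusted p = 0.000314), while SIAH1, a ubiquitin ligase related to SIAH2, fell by 1.88 on the log2 scale (SE 0.23, adjusted p = 2.81e-05). The share of calls that were higher over all genes was 47.6% with TMM factors and 35.9% with total counts. Without control IP 3 and control input 1, both lists of targets had more genes higher (36 of 48 and 14 of 19), and 5 regulators rose and 5 fell. In that fit 3317 of all 15414 genes tested rose and 3536 fell.

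Enrichment, the log2 ratio of IP to input CPM, asks which mRNAs were taken up in the YTHDF2 fraction relative to their level in the lysate. As TMM factors are set from the bulk of genes, enriched and depleted mean relative to that bulk and not absolute uptake. In control cells 5 of the 10 genes were enriched and 3 depleted, with 17.2% of all genes enriched and 14.2% depleted (31.3% together). The enriched genes were ADM (log2 1.60 ± 0.26, edgeR adjusted p = 0.000448), EGLN3 (0.92 ± 0.20, adjusted p = 0.00362), KDM3A (0.87 ± 0.26, adjusted p = 0.0214), SLC2A3 (0.71 ± 0.19, adjusted p = 0.0122) and EGLN1 (0.50 ± 0.16, adjusted p = 0.0324). The glucose transporters were thus on opposite sides, since SLC2A1 was depleted by log2 -1.71 ± 0.24 (edgeR adjusted p = 0.000117), from 44.9 ± 8.77 CPM in the input to 13.7 ± 4.96 CPM in the IP (SD, n = 3). NDRG1 (-1.36 ± 0.32, edgeR adjusted p = 0.00529) and BNIP3 (-0.84 ± 0.19, adjusted p = 0.00358) were depleted as well. HIF1A (-0.43 ± 0.16, edgeR adjusted p = 0.0612) and VEGFA (-0.56 ± 0.22, adjusted p = 0.0688) did not pass, though without control IP 3 both did (adjusted p = 0.0187 and 0.00131; ranges over 25 alternatives 0.00288 to 0.278 and 0.00131 to 0.433).

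These ratios depended in part on how transcript length was treated. With a length correction 4 of the 10 genes were called: ADM and EGLN3 as enriched, SLC2A1 and HIF1A as depleted. Over all 14804 genes that correction gave 2113 enriched and 1747 depleted. EGLN1 lost its call in 12 of 25 alternatives and turned sign on log2(TPM + 1) (log2 -0.50), with an adjusted p from 0.00549 to 0.906. Leaving out any single input library, control IP 1 or control IP 2 ended its call (adjusted p from 0.0532 to 0.111). KDM3A lost its call in 8 of 25, among them without control IP 3 (log2 0.44, adjusted p = 0.0576) and without any of the control inputs (adjusted p from 0.0527 to 0.0707; range over alternatives 0.00474 to 0.157). SLC2A3 lost its call in 5 of 25, among them without control input 3 (adjusted p = 0.0661; range 0.000621 to 0.260).

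In manganese-treated cells 1 gene was enriched and 5 were depleted, against 14.8% and 17.6% of all genes (32.4% together). ADM was again enriched (log2 0.82 ± 0.25, edgeR adjusted p = 0.0249). SLC2A1 (-2.03 ± 0.23, edgeR adjusted p = 4.07e-05), HIF1A (-1.91 ± 0.17, adjusted p = 7.04e-06), BNIP3 (-1.15 ± 0.19, adjusted p = 0.000441), EGLN1 (-0.96 ± 0.16, adjusted p = 0.000651) and NDRG1 (-0.93 ± 0.32, adjusted p = 0.0370) were depleted. SLC2A3 (0.46 ± 0.19, edgeR adjusted p = 0.0819), EGLN3 (0.22 ± 0.20, adjusted p = 0.462), VEGFA (-0.50 ± 0.22, adjusted p = 0.0974) and KDM3A (-0.62 ± 0.26, adjusted p = 0.0864) did not pass. Without control IP 3, SLC2A3, VEGFA and KDM3A did (adjusted p = 0.0198, 0.0131 and 0.00446; ranges over 25 alternatives 0.00673 to 0.205, 0.0104 to 0.972 and 0.00446 to 0.308), as did SLC2A3 without manganese input 3, control IP 1 or manganese IP 1. The NDRG1 call was lost in 11 of 25 alternatives, including without any of the 3 manganese inputs or any of the 3 manganese IPs (adjusted p from 0.0755 to 0.178, and from 0.000382 to 0.364 over all 25). ADM lost its call in 3 of 25, including without manganese input 3 (adjusted p = 0.0648) and without manganese IP 3 (adjusted p = 0.0649; range 0.00122 to 0.287).

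**Figure D4:**
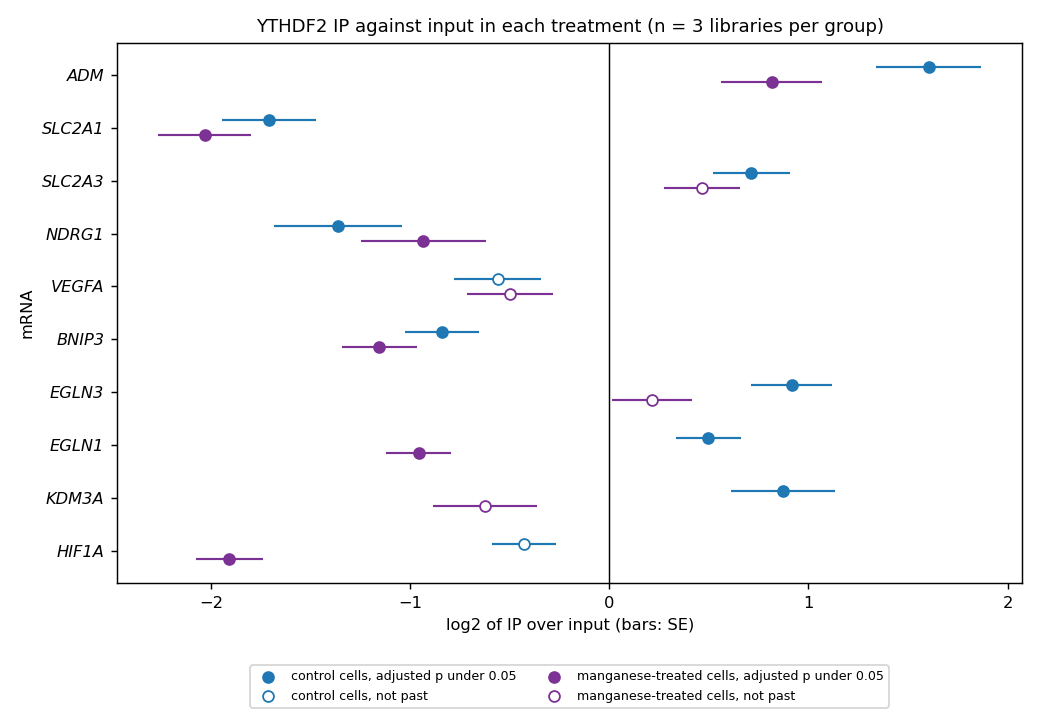
Enrichment of the 10 genes, as the log2 ratio of IP to input, in control and in manganese-treated cells (points; bars are ± 1 SE from the edgeR fit; the vertical line marks equal levels). SLC2A1 is depleted in both (-1.71 and -2.03), while HIF1A, EGLN1 and KDM3A lie lower with manganese (differences of -1.48, -1.45 and -1.50).

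The difference between the 2 enrichments, which is also the manganese effect in the IP minus that in the input, passed for 3 genes, all lower with manganese, against 10.2% lower and 6.94% higher (17.1% together) over all genes. For HIF1A it was log2 -1.48 ± 0.23 (edgeR adjusted p = 0.00180), and the call held in each of 24 alternatives (adjusted p at most 0.0157). For EGLN1 it was -1.45 ± 0.23 (edgeR adjusted p = 0.00189), lost on log2(TPM + 1) (log2 -0.89, limma adjusted p = 0.0998; range over 24 alternatives 6.58e-09 to 0.0998). For KDM3A it was -1.50 ± 0.37 (edgeR adjusted p = 0.0154), lost in 5 of 24 alternatives, which included leaving out manganese input 1, manganese input 3, manganese IP 2 or manganese IP 3 (adjusted p from 0.0558 to 0.0649; range over alternatives 0.00119 to 0.0649), and without control IP 3 it was -1.07 (adjusted p = 0.00406).

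For the remaining 7 genes the difference did not pass. It was -0.79 ± 0.36 for ADM (edgeR adjusted p = 0.155) and -0.70 ± 0.29 for EGLN3 (adjusted p = 0.110). It lay between -0.32 and 0.43 for SLC2A1, BNIP3, SLC2A3, VEGFA and NDRG1, with SE of 0.26 to 0.44. Without control IP 3, 7 of the 10 genes were called: ADM (log2 -1.05, edgeR adjusted p = 0.00747; range over 24 alternatives 0.00747 to 0.317), EGLN3 (-0.90, adjusted p = 0.00598; range 0.00598 to 0.296) and BNIP3 (-0.53, adjusted p = 0.0165; range 0.0165 to 0.762) as lower and NDRG1 as higher (1.01, adjusted p = 0.0104; range 0.0104 to 0.923), beside the 3 already named. Over all genes that fit called 3765 of 15577, with 2269 lower and 1496 higher, against 2531 of 14804 with all libraries. The share of calls that were higher over all genes was 40.6% with TMM factors, 55.6% with total counts and 59.7% on log2(TPM + 1).

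Enrichment in control cells is given for the further lists beside the shares of all genes (17.2% enriched and 14.2% depleted). Of 18 subunits and regulators 7 were enriched and 3 depleted (median log2 0.41, all genes 0.04), of 18 glycolytic genes 3 and 7 (median -0.05), and of 48 hypoxia-induced genes 11 and 4 (median 0.09). HIF1AN, the hydroxylase that blocks the coactivator site of HIF, went from 41.1 ± 3.54 CPM in the input to 193 ± 21.2 CPM in the IP (log2 2.23 ± 0.17, edgeR adjusted p = 3.75e-06). SIAH1 (2.87 ± 0.24, edgeR adjusted p = 4.83e-06) and BHLHE40, a transcription repressor (2.08 ± 0.14, adjusted p = 2.59e-06), were enriched like it. ELOB (-3.09 ± 0.34, edgeR adjusted p = 2.38e-05), GAPDH (-2.59 ± 0.19, adjusted p = 3.75e-06) and TPI1 (-1.89 ± 0.18, adjusted p = 1.19e-05) were depleted. On total counts the glycolytic genes gave 0 enriched and 8 depleted and the hypoxia-induced genes 8 and 13. The direction of the last list thus changed with the scaling, as did that of all genes. Of all 14804 genes, 2543 were enriched and 2096 depleted with TMM factors, and 1679 and 3036 on total counts. The share of calls that were enriched over all genes was 54.8% with TMM factors and 35.6% with total counts.

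With manganese, 9 of 48 hypoxia-induced genes were enriched and 13 depleted (median log2 -0.01, all genes -0.03), 1 and 6 of 18 glycolytic genes (median -0.16) and 7 and 3 of 18 subunits and regulators (median 0.29). Over all genes, 14.8% were enriched and 17.6% depleted in treated cells. HIF1AN was enriched here too (log2 2.06 ± 0.16, edgeR adjusted p = 4.27e-06), as did BHLHE40 (1.45 ± 0.14, adjusted p = 1.14e-05). DDIT4, an inhibitor of mTOR signalling, was enriched by 1.31 ± 0.15 (edgeR adjusted p = 3.76e-05), and the glycogen branching enzyme GBE1 was depleted by -2.37 ± 0.20 (adjusted p = 5.12e-06). The difference between the 2 enrichments passed as lower for 10 and as higher for 3 of the 48 genes, for 1 and 5 of the glycolytic genes and for 2 and 2 of the regulators, against 10.2% lower and 6.94% higher over all genes. On total counts these were 9 and 4, 0 and 7, and 1 and 2, beside 1009 lower and 1261 higher of all 14804 genes. GBE1 had the smallest p among the 48 (-1.83 ± 0.27, edgeR adjusted p = 0.00158): it went from 106 ± 12.1 to 460 ± 6.84 CPM in the input and from 73.1 ± 19.9 to 89.1 ± 12.2 CPM in the IP. In the other direction, ENO1 (1.28 ± 0.23, edgeR adjusted p = 0.00363), GAPDH (1.27 ± 0.26, adjusted p = 0.00587) and ELOB (1.99 ± 0.44, adjusted p = 0.00978) were higher, and SIAH1 was lower (-1.84 ± 0.32, adjusted p = 0.00277).

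The EGLN1 gene row held 2 transcripts that behaved apart. The deposited transcript table names no genes, but the TPM values of ENST00000366641 and ENST00000476717 summed to those of EGLN1 within 1e-06 in all 12 libraries. ENST00000366641 carried most of the counts (83.5% to 100%) and was at 17.4 ± 2.46 TPM in control input, 24.0 ± 0.89 TPM in manganese input, 21.9 ± 0.58 TPM in control IP and 11.1 ± 2.93 TPM in manganese IP (SD, n = 3). Its groups ordered as the CPM of the gene did. ENST00000476717 held 0% to 16.5% of the counts and up to 68.4% of the TPM. It was at 13.2 to 31.6 TPM in control input and 15.9 to 25.9 TPM in manganese input, which overlap. In control IP it was listed at 0 in libraries 1 and 2 and at 16.9 TPM in library 3, and in manganese IP it was at 6.44, 0.695 and 8.73 TPM. On the TPM scale the EGLN1 row thus includes a transcript with few counts. Whether those counts are its own, and its part in the TPM results of EGLN1, were not tested. BNIP3 also matched a pair of transcripts, of which ENST00000368636 held 96.1% to 100% of the counts, and no pair was found for the other 8 genes.

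**Figure D5:**
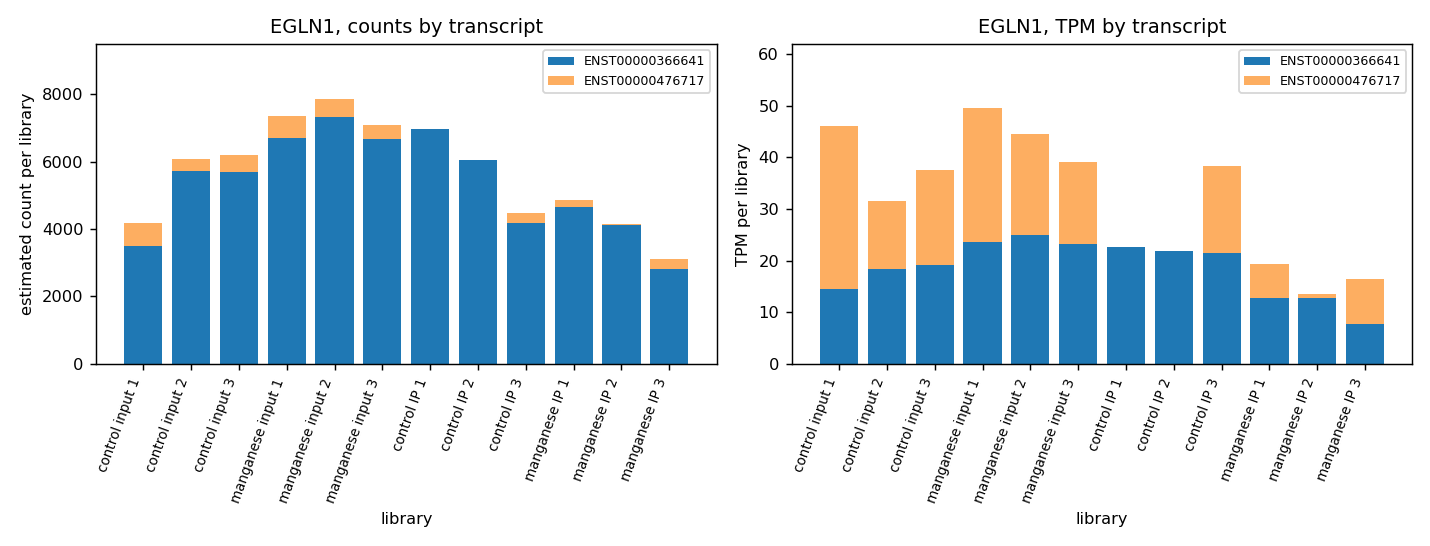
Estimated counts (left) and TPM (right) of EGLN1 in each of the 12 libraries, as bars stacked from its 2 transcripts. ENST00000366641 makes up most of each bar in counts and lies at 21.4 to 22.5 TPM in control IP and 7.74 to 12.8 TPM in manganese IP, while ENST00000476717 is seen mostly on the TPM scale and runs from 0 to 16.9 TPM in control IP.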

How the data were processed

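Per the submitters' processing notes, transcript abundance was estimated by the authors with kallisto and hg19; a version is not given in the sources used here. The deposited gene table holds estimated counts, already whole numbers, and the authors also deposited TPM for genes and transcripts. A deposited summary gives total fragments and the percent aligned. Per-library ratio columns of the authors (12) were not used. Members and further lists were chosen with earlier results of these data known.

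All 12 libraries, 3 in each of 4 groups, entered 1 edgeR 4.0.16 quasi-likelihood fit (R 4.3.3) with a mean per group, TMM factors and filterByExpr (minimum count 10, minimum total 15), which kept 14804 genes. There were 5 contrasts, each with Benjamini-Hochberg adjustment over all genes tested and a threshold of 0.05. Named beside the members are the 3 genes with the smallest p past the threshold per list and contrast, of which the text gives part, and the cell type markers. Alternatives were other scaling (RLE factors, total counts, scaling without PCGF6), a filter of 1 CPM in 3 libraries or none, DESeq2 1.42.0, limma 3.58.1 on log2(TPM + 1), a length correction from the deposited values, fits of only the libraries compared, replicate blocks, and leaving out libraries. Adding pseudogene counts, and for SLC2A3 also those of SLC2A14, was chosen after seeing the data. The fit was run on simulated counts with equal numbers of genes raised and lowered in manganese input alone. That run therefore cannot speak to the IP contrasts or to the scaling. EGLN2 and PECAM1 were not found by name, and SLC16A3, EPO and MIF did not pass the filter. Log2 changes are from the fit, and TPM levels are as deposited. Each SE of a log2 change was derived as its absolute value divided by the square root of the F statistic of its edgeR test. Counting error sets a floor to the precision of low genes such as ADM in control input.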

Additional observations from a re-analysis of the deposited data

Results flagged for a closer look

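For 3 genes of the set the manganese effect in the IP differed from that in the input by a direct test of the difference, fitted with edgeR over all 14804 genes. HIF1A differed by log2 -1.48 (adjusted p = 0.00180), with manganese against control at -0.41 in the input and -1.89 in the IP. EGLN1 differed by log2 -1.45 (adjusted p = 0.00189), with 0.90 in the input and -0.55 in the IP, both past the threshold. KDM3A differed by log2 -1.50 (adjusted p = 0.0154), with 0.56 in the input and -0.94 in the IP.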

How the results depend on the processing

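Genes past the threshold for manganese in the input numbered 2215, but 3742 on total counts, 3524 with limma on log2(TPM + 1) and 4266 when only the libraries compared were fitted, and 1500 to 3213 with libraries left out. For the change of enrichment they numbered 2531, but 1664 with limma, and 1455 to 3998 with libraries left out; members called were 3, but 1 with limma and 2 to 7 with libraries left out. Members called for enrichment in control cells were 8, but 4 with the length correction and 5 to 9 with libraries left out; in manganese-treated cells they were 6, and 4 to 9. Genes enriched or depleted in control cells numbered 4639, but 3860 with the length correction. With libraries left out, genes enriched or depleted numbered 3504 to 5821 in control and 3638 to 6264 in treated cells. Signs turned for EGLN1 in control enrichment with limma (-0.50), and with the length correction for VEGFA in control enrichment (0.29), treated enrichment (0.016) and the change (-0.28) and for SLC2A3 in the change (0.11). The VEGFA change ran from -0.15 to 0.39 with libraries left out, below 0 without control IP 1 (-0.15) or manganese IP 1 (-0.024). The cause was not tested. Of the member results, 507 of 570 kept direction and call under other settings, and 586 of 650 with libraries left out.

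Equal replicate numbers did not mark shared deviations over all genes (r from -0.12 to 0.066), and the main fit did not treat the numbers as pairs. As the input was a part of the lysate, an input and an IP of equal number may still come from the same lysate. This correlation cannot decide that, and blocks were fitted as alternatives. With a replicate block the counts of higher and lower genes were 1588 and 449 for manganese in inputs, 2862 and 3017 for manganese in IPs, 2327 and 1966 for control enrichment, 2000 and 2465 for treated enrichment, and 896 and 1259 for the change. Under that block EGLN3 in the IP (adjusted p = 0.0601) and NDRG1 in treated enrichment (adjusted p = 0.0511) lost their calls. With a replicate block per lysate VEGFA in control (-0.61) and SLC2A3 in treated enrichment (0.47) gained calls. Depth limits the reading of control IP 3 and of ADM in control input, and groups of 3 libraries limit every SD.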

Other observations

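Reads near SLC2A3 were assigned unevenly between libraries. SLC2A3P1 was given 169, 358 and 408 counts in the control inputs, 320, 171 and 223 in the manganese inputs, 966 in control IP 3 and 0 in the other IP libraries. These were 15.3% to 34.5% of the SLC2A3 counts in control input and 2.41% to 4.55% in manganese input. The related transporter SLC2A14 had 0 to 47 counts. BNIP3P1 had 95 to 1400 counts, and the HIF1A copy HIF1AP1 had 0 in every library.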
